A study of Mus musculus with 6 samples.

Results

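Immediate early transcription factors are encoded by genes that cells switch on within minutes of a stimulus, with no need for new protein. The 10 genes described here are the AP-1 genes Fos, Fosb, Fosl2, Jun, Junb and Jund, the zinc finger gene Egr1, the nuclear regulator gene Ier2, the growth regulator gene Myc and the small MAF gene Maff. They were chosen by name, as the probes whose gene name in the scanner files is one of these, which gave 15 probes of 41174 (10 of 27376 gene names). RNA came from the livers of 6 male BALB/c mice, each hybridised to its own single-colour Agilent array. From 6 weeks of age, 3 mice drank water with microcystin-LR (MC-LR) at 100 µg/L for 12 months, and 3 control mice drank normal sterile water for as long. MC-LR is a cyanobacterial peptide toxin that is taken up by hepatocytes and blocks serine/threonine protein phosphatases. The livers of each group came from independent mice, and none carried a transgene or other engineered allele according to the labels.

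FOS and JUN proteins pair through leucine zippers to form AP-1, which binds promoters and enhancers of genes for growth, stress and inflammation. JUN proteins can also pair with each other, while FOS proteins need a JUN partner. Growth factor, cytokine and stress signals reach Fos and Egr1 mainly through MAP kinases that act on promoter-bound SRF and ETS factors, and reach Jun through the JNK and p38 branches. Protein phosphatase 2A is known to restrain these kinases. In liver, the genes are well known for their sharp, short induction after partial hepatectomy and during tissue handling. Their RNAs are short-lived, so a level at the time of tissue collection is a snapshot.

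The promoters of 7 members were found in RefSeq tables of GRCm38.p6. The 4 shown are those that hold TGACG, namely Fos, Fosb, Junb and Maff. For Maff the second of its 3 start sites is shown. Each is the stretch from base -150 to -1 before the annotated start, 5′ to 3′ on the gene's strand, and capitals mark TGACG (the core of the cAMP response element, on either strand), TGACGTCA (its full site, which holds TGACG on both strands, overlapping) and TATAAA.
Fos (chr12:85473740-85473889, plus strand): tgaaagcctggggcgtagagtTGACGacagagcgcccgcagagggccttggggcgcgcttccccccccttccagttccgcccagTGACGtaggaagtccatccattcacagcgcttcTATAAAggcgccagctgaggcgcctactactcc
Fosb (chr7:19310046-19310195, minus strand): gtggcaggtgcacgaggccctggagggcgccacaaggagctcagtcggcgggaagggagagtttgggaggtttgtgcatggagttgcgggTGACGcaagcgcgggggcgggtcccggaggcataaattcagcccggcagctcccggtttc
Junb (chr8:84978749-84978898, minus strand): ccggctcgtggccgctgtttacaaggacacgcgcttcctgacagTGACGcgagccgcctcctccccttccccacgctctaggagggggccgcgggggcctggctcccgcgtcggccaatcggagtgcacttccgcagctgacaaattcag
Maff (chr15:79347370-79347519, plus strand): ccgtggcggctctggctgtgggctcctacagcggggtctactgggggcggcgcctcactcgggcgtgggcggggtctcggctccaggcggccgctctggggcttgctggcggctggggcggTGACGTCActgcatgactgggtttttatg

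Within the whole tabulated window of 300 bases, TGACG was found in 4 of the 7 members with a promoter, and in 20.8% of all 32851 tabulated promoters. Fos held it from base -129 and again from base -66, Fosb from base -60 and Junb from base -106. The full site TGACGTCA was found in Maff alone, from base -29 of its second start, and in 1.79% of all promoters. The EGR motif GCGNGGGCG lay in 3 of the 7 (Fosb, Fosl2 and Maff) and in 5.55% of all, and TATAAA in 2 of the 7 (Fos, and Junb right at its start, past the stretch shown) and in 13.6% of all. TGANTCA, the AP-1 motif, and the CArG box, the motif of SRF, had 0 matches in these windows and were found in 7.81% and 1.63% of all promoters. Bases outside the windows were not searched, and no promoter was found for Egr1. The 0 counts therefore do not show that these genes lack such sites. All motifs were searched on both strands.

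Slide 1 carried only controls 1 and 2. Slide 2 carried all 3 MC-LR livers beside a single control, control 3, and was the only slide with both groups. On each array 64.9% to 73.7% of the spots that were not controls lay well above background, and 0 were saturated. The hepatocyte markers checked were well above background on every array, for all 8 of 8, with Alb, the gene of serum albumin, at 18.00 to 18.22 (normalized log2 value). All 15 member probes passed the filter on dim probes, and 14 were well above background on all 6 arrays. The exception was the second probe of Fosl2, well above background on 2 of 3 control and 3 of 3 MC-LR arrays. Values are normalized log2 signals, so a difference of 1 is a doubling, and the number of arrays limits their precision.

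Between MC-LR and control livers, 0 of the 15 member probes passed an adjusted p of 0.05 (limma over 28506 probes), with adjusted p from 0.357 to 0.901. Across all probes tested 0.0105% passed, 3 higher (0.0105%) and 0 lower (0.0%). At an unadjusted p under 0.05 there was 1 member probe, that of Maff, higher with MC-LR, against 12.9% of all probes tested (7.89% higher and 5.03% lower). Of the 15 differences 8 lay below 0, against 49.6% over all probes. On the best probe of each gene (the one with the highest mean), 7 of the 10 differences lay below 0 (51.5% over all gene names) and 3 above, with a median of -0.35 against -0.01 over the 18920 gene names tested. The median over all 15 member probes was -0.26, and with 1 array left out it ran from -0.33 (control 1) to -0.0043 (control 3). It was -0.07 without MC-LR 1, -0.10 without MC-LR 3, -0.20 without control 2 and -0.27 without MC-LR 2. With normexp background correction, whose offset of 50 shrinks the differences of dim probes, it was -0.11. The median of the best probes was not refitted with arrays left out. Without control 3 these probes gave -0.28 (Fos), -0.26 (Fosb), -0.08 (Fosl2), 0.04 (Jun), -0.24 (Junb) and -0.20 (Jund). The others gave -1.22 (Egr1), -0.0043 (Ier2), 0.72 (Myc) and 1.40 (Maff). In bulk liver, fewer cells of a type and less RNA per cell cannot be told apart.

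**Figure D1:**
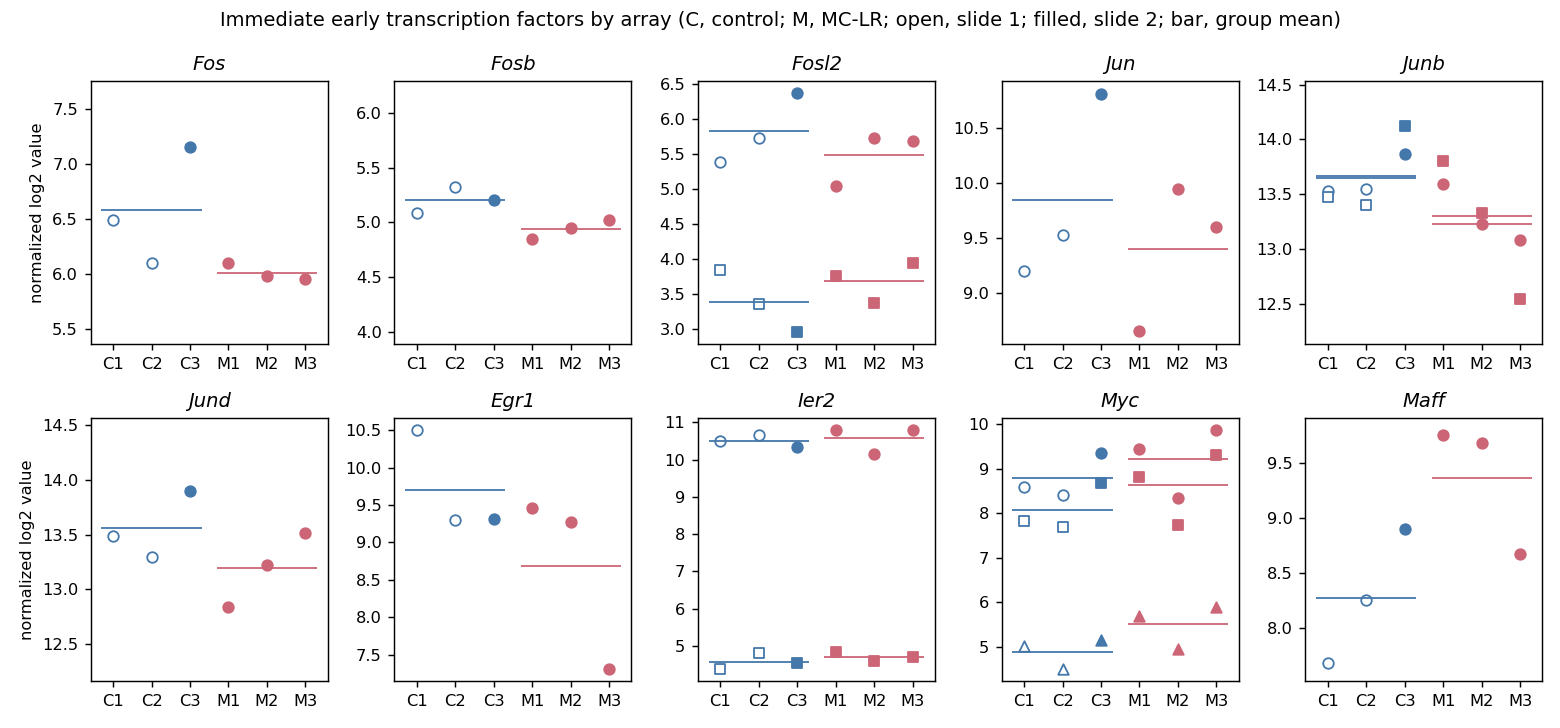
Normalized log2 value (vertical axis) of every probe of the 10 genes on each array (C1 to C3, control; M1 to M3, MC-LR; open symbols, slide 1; filled, slide 2); each marker shape is 1 probe and bars are group means of 3 arrays. Control 3 is the highest array for Fos, Jun, Junb, Jund and the brighter Fosl2 probe. The groups stay apart only for Fos and Fosb, while they were apart for 20.3% of all probes tested.

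Fos encodes the founding FOS protein, which cannot bind DNA as AP-1 without a JUN partner. It stood at 6.49, 6.10 and 7.16 in controls 1 to 3 and at 6.09, 5.98 and 5.95 with MC-LR. The 3 MC-LR livers lay close together just below the lowest control, while control 3 stood above the other controls. The means were 6.58 ± 0.54 and 6.01 ± 0.07 (SD, n = 3 each), a difference of -0.57 ± 0.27 (SE) with a 95% interval of -1.22 to 0.07 (limma, adjusted p = 0.427). Its size rested on control 3: it was -0.28 without that array (adjusted p = 0.341) and -1.15 ± 0.15 (SE) within slide 2, where control 3 is the lone control (adjusted p = 0.268). A fit to all 6 arrays that took slide as a block gave -1.15 ± 0.19 (adjusted p = 0.143), and for every gene such a block also rests on control 3 as the lone control. Normexp gave -0.28.

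Fosb encodes a close relative of FOS. It stood at 5.09, 5.33 and 5.21 in controls and at 4.85, 4.95 and 5.02 with MC-LR. All MC-LR arrays were again below all controls, here with a narrow spread in both groups. The difference was -0.26 ± 0.11 (SE; limma, unadjusted p = 0.0503, adjusted p = 0.386), or 1.20-fold higher in controls, and it was -0.27 within slide 2 and -0.26 without control 3. With normexp it was -0.11. Of all probes tested, 8.54% had the 3 MC-LR arrays below the 3 controls and 11.7% had them above; of the member probes, 2 had them below and 0 above (2 of 15 apart in either direction, against 20.3%). Counted by gene name, these were 2 and 0 of 10, against 9.2% and 11.2%.

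Fosl2 encodes FRA2, a FOS relative that lacks a strong activation domain. Its brighter probe stood at 5.39, 5.73 and 6.37 in controls and at 5.04, 5.72 and 5.68 with MC-LR. The groups overlapped and the highest value was that of control 3. The difference was -0.35 ± 0.30 (SE; 95% interval -1.08 to 0.39; adjusted p = 0.658, limma). It was -0.08 without control 3, -0.13 without MC-LR 1, -0.57 without control 1, -0.89 within slide 2 and -0.12 with normexp. The dim second probe gave 3.85, 3.36 and 2.96 in controls and 3.77, 3.37 and 3.94 with MC-LR. That probe passed the filter only through the MC-LR group, which favours a difference above 0. On it control 3 was the lowest array and the difference was 0.30 ± 0.26 (SE), opposite in sign to the brighter probe (0.09 to 0.53 with 1 array left out, lowest without control 3 and highest without control 1, 0.73 within slide 2 and 0.05 with normexp).

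Jun encodes c-JUN, a main partner of FOS and a target of JNK. It stood at 9.19, 9.53 and 10.81 in controls and at 8.65, 9.94 and 9.60 with MC-LR. Control 3 was the highest liver and MC-LR 1 the lowest, with the other 4 between them. The difference was -0.45 ± 0.51 (SE; 95% interval -1.69 to 0.79; adjusted p = 0.743, limma). It was -1.41 ± 0.54 within slide 2 (SE; adjusted p = 0.436) and 0.04 ± 0.40 without control 3 (adjusted p = 0.969), so its sign changed with that array. Without MC-LR 1, the lowest liver, it was -0.07. Leaving out control 1 gave -0.77 and leaving out MC-LR 2 -0.72.

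Junb encodes a JUN relative with weaker activation of its own, and 2 probes that overlap by 22 bases measured it. On the first it stood at 13.53, 13.55 and 13.86 in controls and at 13.59, 13.23 and 13.09 with MC-LR. On the second it stood at 13.48, 13.40 and 14.12, and at 13.81, 13.33 and 12.54. Both put control 3 highest and MC-LR 3 lowest, and on both MC-LR 1 lay within the range of the controls. The differences were -0.34 ± 0.17 and -0.44 ± 0.36 (SE; limma, adjusted p = 0.456 and 0.634). They were -0.56 and -0.90 within slide 2, and -0.24 and -0.21 without control 3. The second probe also depended on MC-LR 3 and MC-LR 1, with -0.10 and -0.73 when these were left out.

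Jund encodes the JUN relative that is most steadily expressed in resting cells. It stood at 13.49, 13.29 and 13.89 in controls and at 12.84, 13.22 and 13.51 with MC-LR. Control 3 was again the highest and MC-LR 1 the lowest, and the groups overlapped. The difference was -0.37 ± 0.23 (SE; 95% interval -0.92 to 0.19; adjusted p = 0.540, limma), -0.70 within slide 2, -0.20 without control 3 and -0.19 without MC-LR 1.

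**Figure D2:**
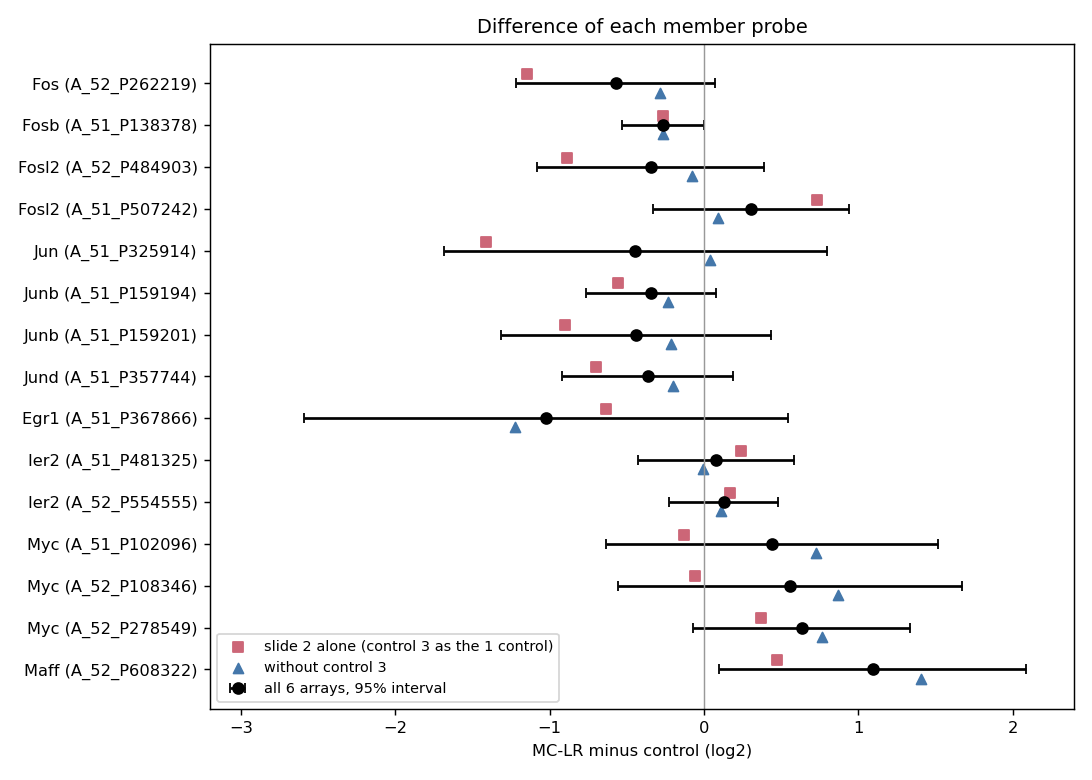
Difference between MC-LR and control means (log2, horizontal axis) for the 15 member probes. Black points are the fit to all 6 arrays with its 95% interval, squares slide 2 alone and triangles the fit without control 3. For Fos, Jun, Junb, Jund, the brighter Fosl2 probe, Myc and Maff the squares lie left of the triangles, as for Jun with -1.41 against 0.04. For Egr1, Ier2 and the dim Fosl2 probe they lie right of them. The gap is the distance of control 3 from the mean of controls 1 and 2.

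Egr1 encodes a zinc finger factor that is induced along with Fos. It stood at 10.51, 9.30 and 9.31 in controls and at 9.46, 9.27 and 7.31 with MC-LR. Among the 6 livers 4 lay within 9.27 to 9.46, control 1 stood above them and MC-LR 3 below. The means were 9.71 ± 0.69 and 8.68 ± 1.19 (SD, n = 3 each), a difference of -1.03 ± 0.65 (SE; 95% interval -2.59 to 0.54; adjusted p = 0.543, limma). Without MC-LR 3 it was -0.34, without control 1 and within slide 2 -0.63. Unlike the JUN genes, Egr1 was not highest in control 3.

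Ier2 encodes a nuclear protein induced early by growth factors. Its bright probe stood at 10.51, 10.65 and 10.33 in controls and at 10.80, 10.14 and 10.78 with MC-LR. The MC-LR livers lay on both sides of the controls. The difference was 0.08 ± 0.21 (SE; 95% interval -0.43 to 0.58; adjusted p = 0.901, limma), and its sign turned when control 3, MC-LR 1 or MC-LR 3 was left out. A dimmer probe, designed on accession AK032692, stood at 4.39 to 4.82 in controls and 4.59 to 4.84 with MC-LR, with a difference of 0.13 ± 0.15 (SE), 0.03 without control 1, 0.25 without control 2, 0.06 without MC-LR 1 and 0.01 with normexp.

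Myc encodes a helix-loop-helix leucine zipper factor that drives growth and ribosome production with its partner MAX. On its brightest probe it stood at 8.58, 8.42 and 9.36 in controls and at 9.45, 8.35 and 9.88 with MC-LR. Control 3, MC-LR 1 and MC-LR 3 were high, and controls 1 and 2 and MC-LR 2 were low, so the groups overlapped. The second probe repeated this, with 7.83, 7.69 and 8.69 against 8.83, 7.74 and 9.32. The gap between these 2 probes stayed between 0.56 and 0.75 on all 6 arrays. The third probe, lying nearer the start of the gene, stood at 5.01, 4.51 and 5.15 against 5.70, 4.97 and 5.90. On the 3 probes the differences were 0.44 ± 0.44, 0.56 ± 0.46 and 0.63 ± 0.29 (SE; limma, adjusted p = 0.703, 0.636 and 0.424). When slide was taken as a block they were -0.13, -0.06 and 0.37, so the sign of the first and second turned. Without MC-LR 3 they were 0.11, 0.21 and 0.44, without MC-LR 2 0.88, 1.00 and 0.91, and without control 3 0.72, 0.87 and 0.76. Leaving out control 2 gave 0.26 and 0.37 on the first and second, and normexp 0.15 on the third.

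Maff encodes a small MAF protein, which has a leucine zipper but no activation domain and pairs with itself or with CNC factors such as NRF2 and BACH1. It stood at 7.67, 8.25 and 8.90 in controls and at 9.76, 9.68 and 8.67 with MC-LR. MC-LR 1 and 2 were above every control, while MC-LR 3 was below control 3. The means were 8.28 ± 0.61 and 9.37 ± 0.61 (SD, n = 3 each), or 2.13-fold, a difference of 1.09 ± 0.41 (SE; 95% interval 0.10 to 2.09; limma, unadjusted p = 0.0358, adjusted p = 0.357). It was 1.40 without control 3 (adjusted p = 0.152), which leaves each group on a slide of its own. Without MC-LR 3 it was 1.44. Leaving out control 1, control 2, MC-LR 1 or MC-LR 2 gave 0.79, 1.08, 0.90 and 0.94, with unadjusted limma p from 0.0760 to 0.109. Slide as a block, with control 3 as the lone control it can use, gave 0.47 ± 0.49 (adjusted p = 0.696).

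Fos, Jun and Myc each had 10 replicate spots of 1 probe on every array, which show the error of the measurement itself. Before normalization, the SD between the spots of an array was 0.0707 to 0.115 for Fos, 0.0543 to 0.0731 for Jun and 0.0503 to 0.0744 for Myc (log2 processed signal, 9 or 10 spots after outlier spots were left out). The SD between the 6 array means, over both groups and slides, was 0.59, 0.86 and 0.74. Within the control group Jun ran from 9.01 to 11.03, Fos from 5.83 to 7.46 and Myc from 8.14 to 9.62. These unnormalized spreads also hold differences in brightness between whole arrays. After normalization the control ranges were narrower, at 9.19 to 10.81, 6.10 to 7.16 and 8.42 to 9.36. Spot error covers the printing and reading of spots on 1 array, and not RNA preparation or labelling. By contrast, the normalized Fos values of the 3 MC-LR livers had an SD of only 0.07. Each array value combines 9 or 10 spots, so its spot error is smaller than the SD of single spots, and the 2 SDs are not alike. Before normalization, Fos in control 2, at 5.83, was below the MC-LR arrays, at 5.94 to 6.14, so the separation of the groups for Fos holds on the normalized scale only, by a margin smaller than the spot error.

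**Figure D3:**
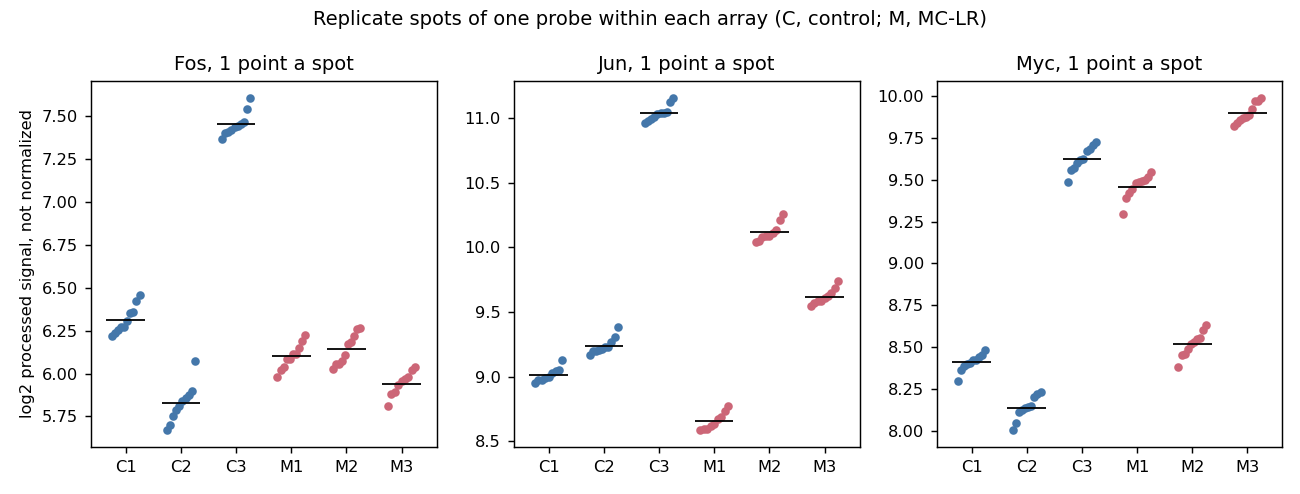
Log2 processed signal (vertical axis, not normalized between arrays) of each replicate spot of Fos, Jun and Myc on the 6 arrays, with bars at the array means. The spots of 1 array spread by an SD of at most 0.115, while the means of Jun run from 8.66 to 11.03.

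The spread between livers of a group was wide for most members. Set against the 1000 tested probes nearest in mean value, the within-group SD was above that of 98.8% for Egr1, 98.2% for Jun, 96.3% for the brightest Myc probe and 96.2% for Maff. In all, 6 of the 15 probes lay above 90%. At the other end, Fosb lay above only 4.4%, while its relative Fos lay above 81.0%, and the dim probes of Ier2 and Fosl2 were the remaining members under 50%. Over all member probes the median within-group SD was 0.42, against 0.20 over all probes tested.

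**Figure D4:**
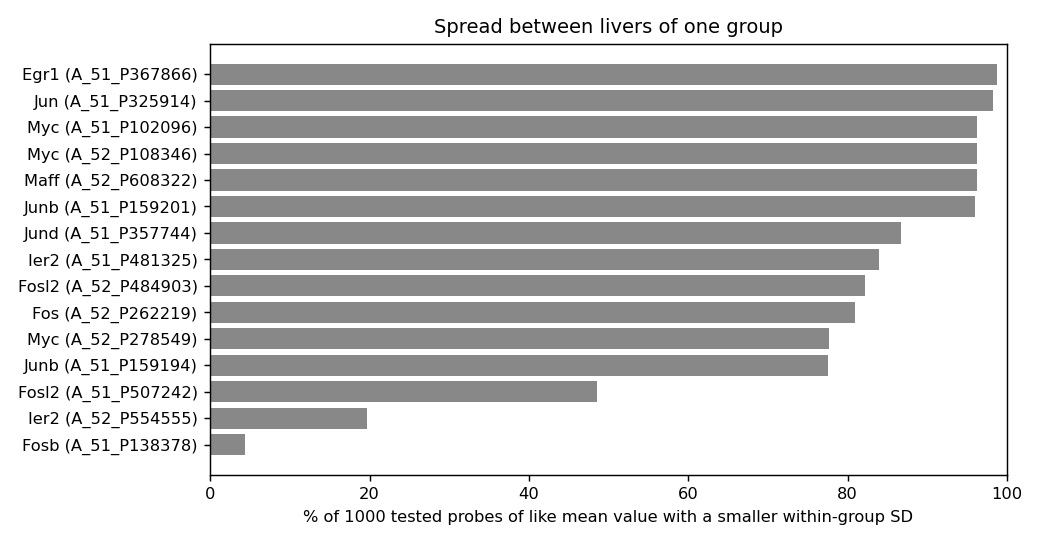
Share of the 1000 tested probes nearest in mean value whose SD within groups (pooled over both groups, log2) was smaller than that of each member probe. Egr1 and Jun lie at 98.8% and 98.2%, and Fosb at 4.4%.

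The array on which members were highest was often control 3, a pattern singled out after the values were seen and therefore not tested. Control 3 was the highest of the 6 arrays for 6 of the 15 member probes, or 5 of the 10 genes on their best probe (Fos, Fosl2, Jun, Junb and Jund), against 19.9% of all probes and 21.1% of all gene names tested. It was the lowest array for 1 member probe, the dim one of Fosl2, against 23.3% of all probes. After each gene was centred on its mean, the median of the 10 members was 0.37 in control 3 and between -0.14 and 0.00 on the other 5 arrays, while over all 18920 gene names the median stayed between -0.02 and 0.01. Fosb was highest in control 2, Egr1 in control 1, Ier2 and Maff in MC-LR 1, and Myc in MC-LR 3. The genes outside the set whose centred values came nearest to the members' mean profile were Tcof1, Kat6b and Plekhm1, at a root mean square distance of 0.03 to 0.04 over the 6 arrays among 25896 probes well above background throughout. Tcof1, for example, stood at 9.57 in control 3 and at 9.07 to 9.18 on the others.

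Markers of macrophages and lymphocytes were also mostly high in that liver, and endothelial and blood markers were not. Control 3 was the highest array for 7 of 8 markers of Kupffer cells and macrophages, 5 of 7 of lymphocytes, 3 of 4 of neutrophils, 4 of 7 of stellate cells and fibroblasts and 2 of 5 of cholangiocytes. It was the highest for 1 of 8 hepatocyte markers, 2 of 9 endothelial markers and 0 of 4 blood markers. The mean of the Kupffer cell and macrophage markers was 12.04 in control 3, against 11.16 and 11.22 in the other controls and 10.84 to 11.53 with MC-LR. That of the lymphocyte markers was 8.09, against 7.34 and 7.47 in the other controls and 7.17 to 7.76 with MC-LR. All these markers were well above background on all 6 arrays, except the neutrophil gene Ngp, which was too dim to test. Endothelial markers had means of 9.96 to 10.17 in controls and 9.55 to 9.93 with MC-LR, and blood markers 13.44 to 14.04 and 13.09 to 13.17. All 9 and all 4 differences lay below 0, against 51.5% over all gene names. The same held for all 8 Kupffer cell and macrophage markers and all 4 neutrophil markers tested, with medians of -0.23 and -0.61. Of the 52 markers tested in all, 0 passed the adjusted threshold (limma). At an unadjusted p under 0.05 there were 1 higher and 5 lower, against 7.53% and 5.36% of all gene names. The part of these cells in the levels of the immediate early genes was not tested.

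A textbook list of other immediate early genes was read in the same way. Of its 59 genes, 58 had a probe and 52 passed the filter, and 0 of these passed an adjusted p of 0.05 in either direction (limma, lowest adjusted p = 0.244), with 0.0159% of gene names passing. At an unadjusted p under 0.05, 3 were higher and 7 lower, or 5.77% and 13.5% of the list, against 7.53% and 5.36% of all gene names. In 4 (7.69%) all MC-LR livers were above all controls and in 7 (13.5%) below, against 11.2% and 9.2% of all gene names. The median difference was -0.20, against -0.01 over all gene names. It was -0.06 without control 3, -0.11 without MC-LR 3, -0.12 with normexp and -0.34 within slide 2. Control 3 was the highest array for 26 of the 52 (50%), against 21.1% of all gene names. Their centred median there was 0.26, against -0.11 to 0.05 elsewhere. In the lists described below, control 3 was the highest array for 13 of 30 dimer partners and relatives (43.3%) and 5 of 20 upstream regulators (25%).

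**Figure D5:**
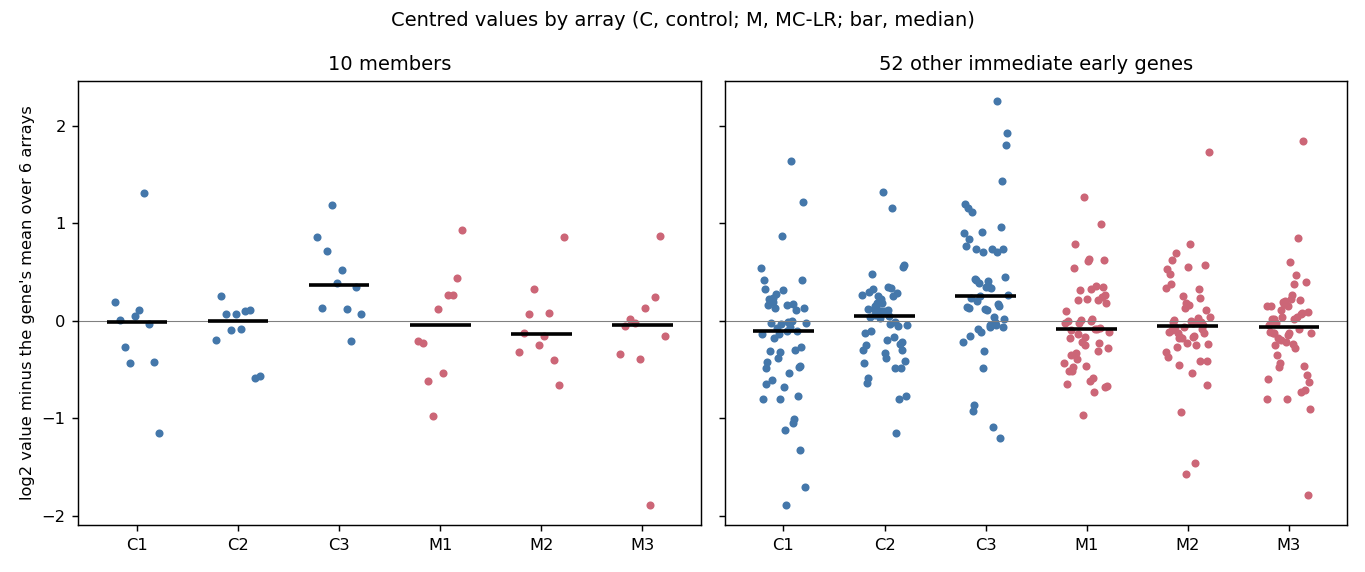
Log2 value of each gene minus its mean over the 6 arrays (vertical axis), for the 10 members on the left and 52 other immediate early genes on the right, by array; bars are medians. Control 3 has the highest median in both panels, 0.37 and 0.26.

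The 4 genes of that list with the smallest p differed in direction. Btg1, an antiproliferative gene, stood at 12.75, 12.63 and 12.94 in controls and at 12.18, 12.25 and 12.34 with MC-LR, with a difference of -0.52 ± 0.12 (SE; adjusted p = 0.244, limma). Its relative Btg2 stood at 9.65, 9.52 and 10.20 and at 9.07, 9.35 and 8.99, with a difference of -0.66 ± 0.21 (adjusted p = 0.308). For both, all MC-LR livers were below all controls. Phlda1, a pleckstrin homology gene induced by growth factor signals, was the other way round, at 12.45, 12.43 and 12.03 in controls and 14.22, 13.14 and 15.06 with MC-LR, a difference of 1.84 ± 0.47 (SE; adjusted p = 0.260). Bhlhe40, a repressor that also belongs to the circadian clock, stood at 9.85, 10.96 and 11.12 and at 11.80, 11.76 and 11.58, a difference of 1.07 ± 0.34 (adjusted p = 0.308).

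Among 21 upstream regulators, that is SRF, its cofactors, ETS and CREB factors and MAP kinases with their activators, 20 were tested and 0 passed (limma, lowest adjusted p = 0.345). At an unadjusted p under 0.05, 0 were higher and 1 (5%) lower, against 7.53% and 5.36% of all gene names, and the median difference was -0.10 against -0.01. In 0 all MC-LR livers were above all controls and in 4 (20%) below, against 11.2% and 9.2% of all gene names. Elk3, an ETS partner of SRF, stood at 10.54 or above in every control and at 10.44, 10.37 and 10.26 with MC-LR, a difference of -0.29 ± 0.10 (SE). Elk4 differed by -0.16 ± 0.10 and Creb1, the factor that binds TGACGTCA, by -0.30 ± 0.17. Rps6ka5, the kinase MSK1, differed by 0.84 ± 0.49 and was well above background on 1 of 3 control and 3 of 3 MC-LR arrays. It passed the filter only through the MC-LR group, so the filter itself favoured a difference above 0. These 4 had the smallest p of their list, and the levels of regulator RNAs do not show the activity of the proteins.

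Of 33 dimer partners and relatives of the members, 30 were tested and 0 passed (limma, lowest adjusted p = 0.232), with a median difference of -0.04. At an unadjusted p under 0.05, 2 were higher and 1 lower, or 6.67% and 3.33%, against 7.53% and 5.36% of all gene names. In 2 (6.67%) all MC-LR livers were above all controls and in 4 (13.3%) below, against 11.2% and 9.2% of all gene names. Bach1, which encodes a repressor that pairs with small MAF proteins such as MAFF, stood at 10.73, 10.90 and 11.18 in controls and at 11.72, 11.53 and 11.64 with MC-LR, a difference of 0.69 ± 0.14 (SE; adjusted p = 0.232). All 3 MC-LR livers were above all controls. Mnt, a repressor that competes with MYC for MAX, stood at 11.22, 11.28 and 11.42 and at 12.08, 11.79 and 11.52, a difference of 0.49 ± 0.16 (adjusted p = 0.323). Mycl, a relative of Myc, differed by -0.27 ± 0.11 and Maf, a large MAF gene, by -0.22 ± 0.10, with all MC-LR livers below all controls for both. Of the 30, 3 were also on the list of other immediate early genes.

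The probes lie, in mm9 coordinates of the scanner files, at chromosome 12, 86817900 to 86817959 for Fos, chromosome 7, 19888477 to 19888536 for Fosb and chromosome 4, 94715864 to 94715923 for Jun. That of Maff lies at chromosome 15, 79189442 to 79189501, and the 3 of Myc between 61820925 and 61821576 on the same chromosome. Exon and UTR annotation of that build was not used here.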

How the data were processed

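Spots were read with Agilent Feature Extraction (version 10.7 in the submitters' processing notes), and per the file headers each spot's processed intensity is background-subtracted and detrended. Normalized log2 values for the same arrays were deposited by the authors, who per the design text of the series used GeneSpring with quantile normalization. Each column correlated at 0.998 to 1.000 with the logged processed intensity of that array and had a median of 5.94, so its scale is log2, not centred by gene, and higher means more signal. These values were used throughout. Testing was limited to the 28506 of 41174 probes that were well above background (most of their spots) throughout 1 group or both. MC-LR was set against control in R 4.3.3 with limma 3.58.1 (lmFit, eBayes, 4 residual and 2.18 prior degrees of freedom, two-sided), with Benjamini-Hochberg adjustment over all probes, a threshold of 0.05 and each probe as its own feature. List genes were represented by the passing probe with the highest mean, matched by gene name or RefSeq accession (GRCm38.p6). The fit was tested on simulated data. The members and lists were chosen with earlier results of these data known. All members are named, and of each list the genes past the threshold or, as none passed, the 4 with the smallest p. Slide comes from the file headers and coincides with the scan. Alternatives covered normalization, background correction (normexp, offset 50), filters, 1 probe or the mean of probes per gene, slide, replicate number as a block, the variance model, thresholds and each array left out.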

Additional observations from a re-analysis of the deposited data

How the results depend on the processing

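Of the 15 member probes, 0 passed the adjusted threshold under any of the 19 refits (274 values, adjusted p from 0.143 to 0.994), and 266 of the values kept the sign of the reported difference. Many of these could not turn, as the filters, 1 probe per gene, the replicate block and the variance model left each difference as reported. Differences within slide 2 equal those of slide as a block, so they add no separate values. The 8 that turned were those of Myc on its brightest and second probes with slide as a block (-0.131 and -0.0608, the same within slide 2), and leave-one-out values of Jun (range -0.771 to 0.0367) and of the bright Ier2 probe (range -0.0364 to 0.296). The list of other immediate early genes also had 0 past the threshold throughout. Over all probes, the count of 3 became 1 with 75th percentile scaling, 1 with median scaling, 1 with the strict filter, 13 with slide as a block (8 higher and 5 lower), 0 in the arrays of slide 2 (3322 had an unadjusted limma p under 0.05) and 1 to 70 when an array was left out. Leaving out control 3, after which each group has a slide of its own, gave the 70, and leaving out MC-LR 1 the 1. At an adjusted p under 0.10 it was 5, and 3684 had an unadjusted p under 0.05. Replicates are numbered 1 to 3 in both groups. The deviations of same-numbered arrays correlated at 0.169, -0.304 and -0.176, and those of arrays with different numbers at -0.196 to 0.346. With deviations taken within groups of 3, these values cannot show whether same-numbered arrays share more than a number. With the replicate block the count was 0 (limma, 2875 at an unadjusted p under 0.05) and no member call changed. Dim probes, such as the second ones of Fosl2 and Ier2, lie near the background. Normexp adds an offset of 50 to every intensity, which by design shrinks log2 differences at low signal. With it the differences of these 2 probes were 0.05 and 0.01. Those of Fos, Fosb, the brighter Fosl2 probe and the third Myc probe were -0.28, -0.11, -0.12 and 0.15. A smaller value with normexp therefore does not show that a difference is unstable.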
